A study of Mus musculus with 32 samples.

Results

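SWI/SNF chromatin remodeling subunits are described here through the IGF2BP3 eCLIP peaks and the RNA levels of 10 mouse genes, Arid1a, Arid1b, Arid2, Smarca2, Smarca4, Smarcb1, Smarcc1, Smarcc2, Smarcd2 and Pbrm1, out of 28827 genes listed in at least 1 of the RNA-seq tables. The genes were listed by name and all 10 were found in both tables. They were chosen with measured values in view, namely the IGF2BP3 peaks and the listed genotype comparisons of these same libraries, so their peak counts are given as a description and support nothing about the choice.

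SWI/SNF complexes are ATP-driven machines that slide or evict nucleosomes and so open chromatin at enhancers and promoters. The ATPase is SMARCA4 (BRG1) or SMARCA2 (BRM), the core holds SMARCB1, SMARCC1, SMARCC2 and a SMARCD subunit, and ARID1A or ARID1B marks the BAF form while ARID2 and PBRM1 mark the PBAF form. SMARCA4-containing complexes are known for a role in myeloid leukemia cells, and SMARCD2 for a role in granulocyte development. IGF2BP3 is an RNA-binding protein with RRM and KH domains, and eCLIP maps its contacts by crosslinking, immunoprecipitation and sequencing beside a size-matched input (smInput).

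The 32 libraries were 12 of RNA-seq, 10 of IGF2BP3 eCLIP and the 10 smInput libraries of the latter. Lin- cells were lineage-depleted bone marrow cells that had been transduced with a retrovirus carrying MLL-Af4 with a FLAG tag and selected in culture with G418, and CD11b+ cells were taken by magnetic selection from splenic tumors of mice transplanted with MLL-Af4-transduced cells, a selection that does not by itself separate leukemic from host myeloid cells. RNA-seq covered WT/MLL-Af4 and I3KO/MLL-Af4 cells, the latter lacking Igf2bp3, with 3 libraries of each in each cell type, whereas the labels of the eCLIP and smInput libraries give no genotype and the study's legends name WT/MLL-Af4 cells for the eCLIP. MLL-Af4 was delivered by a retroviral vector and the labels listed no treatment. Per the supplementary methods, marrow donors and irradiated recipients of the transplants were female mice aged 8 weeks, and no age is stated there for the donors of Lin- cells. The eCLIP of Lin- cells had 3 biological and 3 technical libraries and that of CD11b+ cells 2 biological and 2 technical libraries, numbered 1 to 6 and 1 to 4 with the technical ones last. The labels do not say which biological library a technical one repeats, nor whether the biological ones came from separate animals or cultures, so p-values measure only the spread between these libraries. The 2 cell types also differed in source, culture and selection, and these cannot be told apart from the cell type.

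Each library held 4040 to 10054 peaks after the authors' smInput filter, with 35663 to 233695 reads in them by the last number of each peak's name, which was read as the reads in the peak. Lin- libraries 2 and 5 stood apart, with 59.5% and 57.3% of all their peaks in introns against 75.8% to 81.1% in the other Lin- libraries and 78.0% to 85.9% in CD11b+ libraries. Of the CD11b+ markers, Csf1r, Lyz2 and Cd14 had a mean normalized count of 15008, 72146 and 1742 in the CD11b+ table, but Itgam, which encodes CD11b itself, had only 17.0 there and was not listed in the Lin- table. The Lin- table held Kit, Cd34, Flt3 and Meis1 at 6974, 9052, 9396 and 2452, and also Lyz2 at 20990 and Csf1r at 7910. Of other lineages, Hba-a1 had 5.85 in the Lin- and 1268 in the CD11b+ table, Ms4a1 1.10 and 69.1, and Cd3e 5.63 in the CD11b+ table. These means pool both genotypes, and their part in the results below was not tested.

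The sequences that carried the most widely shared peaks are given first. They are 7 of the 8 member regions outside 3′UTRs with a peak in the most of the 10 eCLIP libraries, where a region is the union of overlapping peaks of one gene, written 5′ to 3′ on the transcribed strand from the GRCm38 genome. Capitals mark runs of at least 3 GT or TG repeats.
Arid1a intron, chr4:133747083-133747174, minus strand: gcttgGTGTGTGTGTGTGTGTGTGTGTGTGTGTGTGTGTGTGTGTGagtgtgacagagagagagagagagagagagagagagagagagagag
Arid1b intron, chr17:5005599-5005739, plus strand: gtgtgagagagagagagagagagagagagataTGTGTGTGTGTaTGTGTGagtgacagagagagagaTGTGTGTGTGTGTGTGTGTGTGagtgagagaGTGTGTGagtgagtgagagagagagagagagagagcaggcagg
Arid1a intron, chr4:133749950-133750017, minus strand: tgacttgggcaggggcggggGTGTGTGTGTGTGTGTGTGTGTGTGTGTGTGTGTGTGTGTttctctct
Arid1b intron, chr17:5185139-5185192, plus strand: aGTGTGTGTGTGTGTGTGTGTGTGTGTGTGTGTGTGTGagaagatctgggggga
Arid1b intron, chr17:5069783-5069852, plus strand: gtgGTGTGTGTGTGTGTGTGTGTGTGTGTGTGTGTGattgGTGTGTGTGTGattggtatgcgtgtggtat
Arid1a coding exon, chr4:133753473-133753531, minus strand: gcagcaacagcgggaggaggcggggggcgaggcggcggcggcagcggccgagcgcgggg
Arid1b intron, chr17:5193164-5193386, plus strand: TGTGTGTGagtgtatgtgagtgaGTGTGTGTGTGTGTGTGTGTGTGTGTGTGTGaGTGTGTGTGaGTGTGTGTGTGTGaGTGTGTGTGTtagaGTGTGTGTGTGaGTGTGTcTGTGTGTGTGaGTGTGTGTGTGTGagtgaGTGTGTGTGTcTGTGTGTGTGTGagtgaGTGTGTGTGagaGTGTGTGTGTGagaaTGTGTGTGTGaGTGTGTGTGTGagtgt

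The 7 shown lay on the genes of the ARID1 subunits, and 6 of these 7 held a GT repeat, the longest run being 41 bases in the Arid1a region at chr4:133747083-133747174. The one without was a stretch of 84.7% G and C in the coding sequence near the Arid1a start. These counts cover the regions shown and no others. An Arid1b region with a CA repeat, at chr17:5019534-5019674, had peaks in as many libraries as the last one shown and was placed after it by its larger peak p-value, and of all 14 regions found in at least 5 libraries 7 held a GT repeat of at least 6 bases.

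A second kind of sequence came from regions with peaks in Lin- libraries only. For each gene with such a region in at least 2 libraries, within 300 nt of the 3′ end of an annotated intron ending in AG, the one in the most libraries is printed through the first 12 bases of the next exon, which are in capitals. This set was chosen after its values were seen. The Arid2 region spans a whole short intron, its midpoint being 57 nt from the 3′ and 49 nt from the 5′ splice site. The first bases printed for Arid2, before gtgagag, thus belong to the preceding exon although they are not in capitals.
Arid1a, chr4:133686314-133686376, minus strand: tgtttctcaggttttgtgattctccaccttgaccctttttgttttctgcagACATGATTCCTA
Smarcd2, chr11:106266681-106266751, minus strand: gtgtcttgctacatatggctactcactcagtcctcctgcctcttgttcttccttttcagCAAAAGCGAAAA
Arid2, chr15:96287771-96287905, plus strand: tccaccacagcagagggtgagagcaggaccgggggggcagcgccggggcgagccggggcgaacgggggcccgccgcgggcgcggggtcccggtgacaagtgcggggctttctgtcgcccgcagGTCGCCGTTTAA
Smarca4, chr9:21647572-21647629, plus strand: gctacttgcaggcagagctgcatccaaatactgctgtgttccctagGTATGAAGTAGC

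In the last 40 bases of the intron, C and T made up 75.0% in Arid1a, 80.0% in Smarcd2, 50% in Arid2 and 52.5% in Smarca4. Smarca2 carried peaks in CD11b+ libraries only, and 3 of its 8 lay on a CA repeat in the 3′UTR, of which 30 bases are shown with the CA or AC runs in capitals, again chosen after the values were seen.
Smarca2 3′UTR, chr19:26777560-26777589, plus strand: gcgtgcagACACACtACACACACACACACA

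RNA of the 10 genes was present at intermediate to high levels in both cell types. On the scale of the authors' mean normalized count per kb of exon, among genes with a mean of at least 10, the members lay between the percentiles 58.4 and 93.7 in Lin- cells (median 87.3) and between 57.6 and 88.3 in CD11b+ cells (median 80.7). Arid1a was the highest member in Lin- cells, at 1902 per kb and percentile 93.7, and stood at 787 per kb and percentile 85.4 in CD11b+ cells. Smarca4, the BRG1 ATPase, was at percentile 92.0 in Lin- and 83.4 in CD11b+ cells, and Smarca2, the BRM ATPase, at 58.4 and 61.9. The core subunit genes Smarcb1, Smarcc1, Smarcc2 and Smarcd2 were at percentiles 88.9, 86.8, 87.9 and 92.5 in Lin- cells and 84.4, 68.3, 84.8 and 88.3 in CD11b+ cells. Arid1b, Arid2 and Pbrm1 were at 78.6, 83.4 and 81.2 in Lin- cells and at 68.2, 78.0 and 57.6 in CD11b+ cells. The tables were normalized separately, so values were not tested between cell types. Counts of single libraries, Igf2bp3 in the knockout included, were not analysed here, so no difference between genotypes is given for any member.

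At least 1 filtered peak was found on 8 of the 10 genes in Lin- libraries, where 39.8% of genes with a mean of at least 10 had one, and on 9 of 10 in CD11b+ libraries, where the share was 37.1%. A region with peaks in at least 2 biological libraries was found on 6 members in Lin- and 4 in CD11b+ cells, against 14.9% and 11.6% of genes. The genes had been chosen on these peaks, and nothing is read from these counts. The members are also long, with a median of 95.3 kb against 17.7 kb for all genes of the Lin- background. Per 100 kb of gene, members with a peak had a median of 7.95 merged regions in Lin- and 5.11 in CD11b+ cells, beside 7.85 and 5.87 over all genes with a peak.

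**Figure D1:**
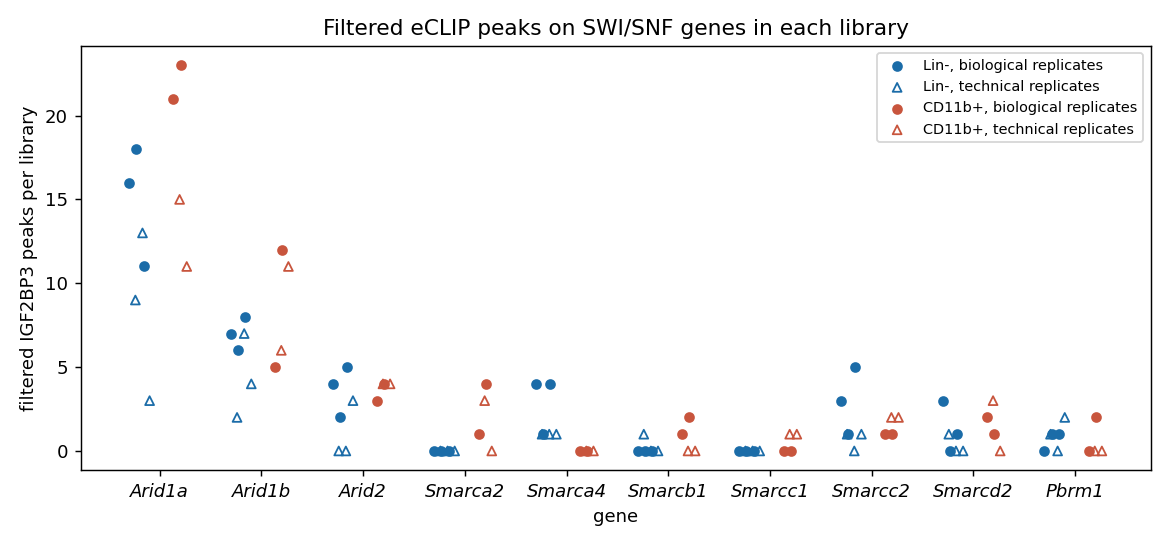
Number of filtered IGF2BP3 eCLIP peaks on each SWI/SNF gene (vertical axis) in each library, with Lin- libraries in blue and CD11b+ libraries in red, filled circles for biological and open triangles for technical replicates. Arid1a had the most peaks, Smarca4 had peaks only in Lin- libraries and Smarca2 and Smarcc1 only in CD11b+ libraries.

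By number, without regard to gene length, peaks were concentrated on the genes of the large ARID subunits, which give BAF and PBAF complexes their identity. Arid1a had 16, 18 and 11 peaks in the biological Lin- libraries 1 to 3, 9, 13 and 3 in the technical ones, 21 and 23 in the biological CD11b+ libraries and 15 and 11 in the technical ones. The biological CD11b+ libraries (22.0 ± 1.41 peaks, mean ± SD, n = 2) lay above the biological Lin- libraries (15.0 ± 3.61, n = 3), whereas over all libraries the groups overlapped. By merged regions, 34 in Lin- and 32 in CD11b+ cells, Arid1a ranked 3 and 4 among all genes of the respective libraries.

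Arid1b had 7, 6 and 8 peaks in the biological Lin- libraries, 2, 7 and 4 in the technical ones, and 5, 12, 6 and 11 in CD11b+ libraries 1 to 4. Of the 4 CD11b+ libraries, 2 lay within the range of the Lin- libraries and 2 above it. The gene is 353.3 kb long, and its 17 regions in Lin- and 9 in CD11b+ cells came to 4.81 and 2.55 per 100 kb, beside 43.7 and 41.2 for Arid1a. From the biological libraries alone Arid1b had 14 regions in Lin- and 12 in CD11b+ cells, as peaks of further libraries can join neighboring regions. The difference in its region counts thus depends on the merging.

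Arid2, the PBAF subunit, had 4, 2 and 5 peaks in the biological and 0, 0 and 3 in the technical Lin- libraries, and 3, 4, 4 and 4 in CD11b+ libraries. The values overlapped. Of its 12 regions, 6 had peaks only in Lin-, 4 only in CD11b+ and 2 in both kinds of libraries. The 6 of the first kind and none of the other 6 lay within 300 nt of a 3′ splice site on its intron side. Pbrm1, whose bromodomain protein also belongs to PBAF, had 5 peaks in Lin- and 2 in CD11b+ libraries, and each of its 7 regions was found in 1 library.

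Each ATPase gene had peaks in the libraries of only 1 cell type. Smarca4 had 4, 1 and 4 peaks in the biological and 1, 1 and 1 in the technical Lin- libraries and 0 in every CD11b+ library. Smarca2 had 0 in all 6 Lin- libraries and 1, 4, 3 and 0 in CD11b+ libraries 1 to 4. The Smarca4 counts of the groups did not overlap, while those of Smarca2 did, through CD11b+ library 4. The share of all genes whose counts do not overlap was not computed, so nothing is read from this difference. The peaks were small, with at most 11 reads on Smarca4 and 10 on Smarca2, and a peak in these data needed at least 3 reads, so a gene with 0 peaks is one on which none was detectable at this depth. Of the 8 Smarca4 regions, 6 lay within 300 nt of a 3′ splice site, 5 of these at introns ending in AG. The annotated intron end next to chr9:21685967-21686028 did not end in AG, so that splice site is uncertain. The 3′UTR region and 1 further region of Smarca2 also overlapped the annotated gene 4931403E22Rik on the opposite strand.

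The core subunit genes had few peaks by number. Some of these genes are short, with 9.79 kb for Smarcd2 and 31.2 kb for Smarcc2. Per 100 kb, Smarcd2 had 30.6 regions in Lin- and 40.8 in CD11b+ cells, from 3 and 4 regions, and Smarcc2 32.0 and 12.8. Smarcb1 had 4.02 and 12.1 and Smarcc1 0 and 0.82, beside 6.81 and 5.11 for Arid2. Smarcc2 had 3, 1 and 5 in the biological and 1, 0 and 1 in the technical Lin- libraries and 1, 1, 2 and 2 in CD11b+ libraries, with no separation of the groups. Smarcd2 had 3, 0 and 1 in the biological and 1, 0 and 0 in the technical Lin- libraries and 2, 1, 3 and 0 in CD11b+ libraries, again overlapping. Smarcb1 had 1 peak in 1 Lin- library and 1 and 2 in the biological CD11b+ libraries. Smarcc1 had none in Lin- libraries and 1 in each technical CD11b+ library, both on the same GT repeat.

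The smInput libraries held 2 peaks on the members, each of 3 reads. One, in Lin- smInput 1, lay on Arid1b at chr17:5019584-5019633 within the CA repeat region described below, and the filter removed 1 Arid1b peak of Lin- eCLIP library 1, the only member peak it removed in the 10 libraries. The other, in CD11b+ smInput 4, lay on Arid1a at chr4:133743789-133743833, inside a region with peaks in 2 other CD11b+ libraries. The filter removed 10.8% to 25.9% of all peaks of a library.

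**Figure D2:**
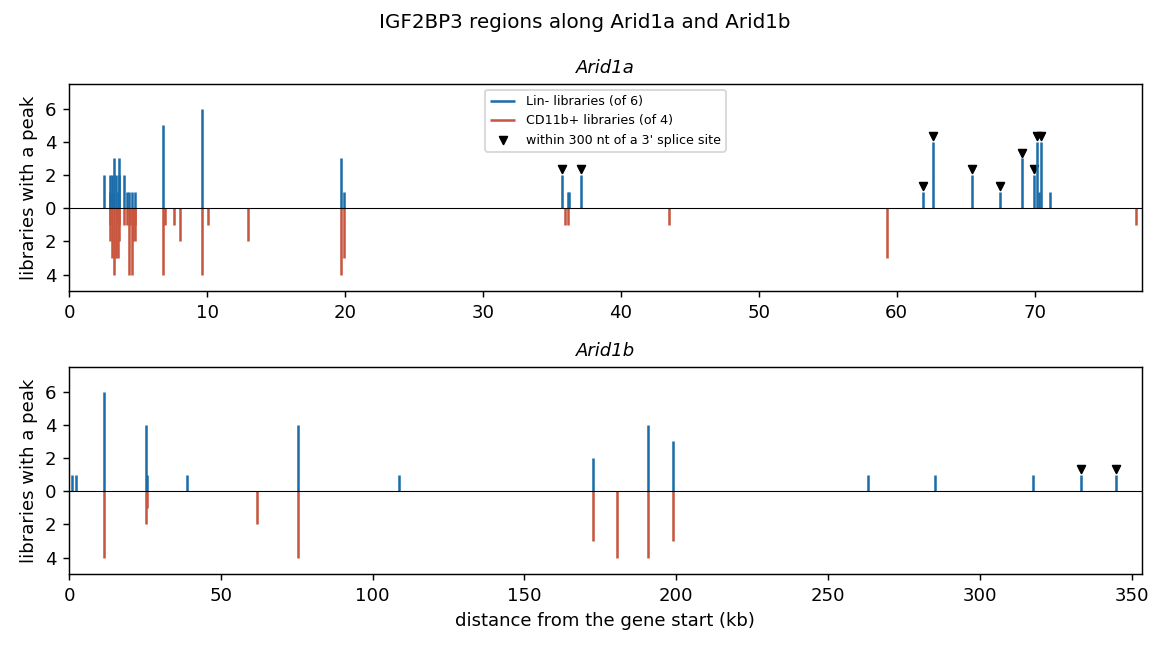
Regions along Arid1a and Arid1b by distance from the gene start in kb, with the number of Lin- libraries with a peak drawn upward in blue and of CD11b+ libraries downward in red, and triangles on regions within 300 nt of a 3′ splice site. Regions found in both cell types lie in the first 20 kb of Arid1a, apart from 1 coding region 36137 nt in, and the marked regions have peaks in Lin- libraries only.

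Merging the peaks of all 10 libraries gave 119 member regions, 101 in introns, 15 in coding exons and 3 in 3′UTRs. Of these, 29 had peaks in both cell types, 55 only in Lin- and 35 only in CD11b+ libraries, and 56 had a peak in 1 library only. The 14 regions found in at least 5 libraries were all on Arid1a (8) or Arid1b (6). None of the 119 overlapped another annotated gene on the same strand.

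A GT 6-mer (GTGTGT or TGTGTG) was present in 18 of the 119 regions, all intronic. It was present in 8 of the 29 regions with peaks in both cell types and in 7 of the 14 regions found in at least 5 libraries. Of member regions found in at least 3 of 6 Lin- libraries, 31.25% of 16 held it, beside 8.72% for all genes. For at least 2 of 4 CD11b+ libraries the shares were 43.2% of 37 and 28.0%. The Arid1a region at chr4:133747083-133747174, 9641 nt from the gene start, had 12, 15 and 6 reads in the biological and 7, 19 and 3 in the technical Lin- libraries, and 30, 126, 65 and 81 in CD11b+ libraries 1 to 4. Every CD11b+ library was above every Lin- library. These reads are not scaled to the library. Over all peaks, Lin- libraries 1 to 6 held 82467, 233695, 73052, 37569, 135453 and 35663 reads and CD11b+ libraries 91587 to 161236. The share of all regions whose reads separate between the cell types was not computed, so nothing is read from such separations here. The Arid1a repeat at chr4:133749950-133750017 had 10, 13, 17, 0, 7 and 8 reads in Lin- libraries 1 to 6 and 66, 65, 61 and 38 in CD11b+ libraries, with no overlap. The Arid1b repeat at chr17:5005599-5005739 had 9, 34, 4, 10, 32 and 4 reads in Lin- libraries and 23, 137, 14 and 91 in CD11b+ libraries. Here Lin- libraries 2 and 5 overlapped the CD11b+ values. The Arid1b repeat at chr17:5185139-5185192 had 4, 16, 16, 0, 14 and 0 reads in Lin- and 30, 71, 18 and 45 in CD11b+ libraries, the lowest of which was close above the highest Lin- value. In the other GT regions found in at least 5 libraries, all on Arid1b, the groups overlapped. The region at chr17:5069783-5069852 had at most 10 reads in Lin- libraries and 10, 52, 8 and 39 in CD11b+ libraries. At chr17:5193164-5193386 these were at most 15 in Lin- and 0, 93, 11 and 81 in CD11b+ libraries. At chr17:5166847-5166931 they were at most 5 in Lin- and 3, 25, 0 and 11 in CD11b+ libraries.

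**Figure D3:**
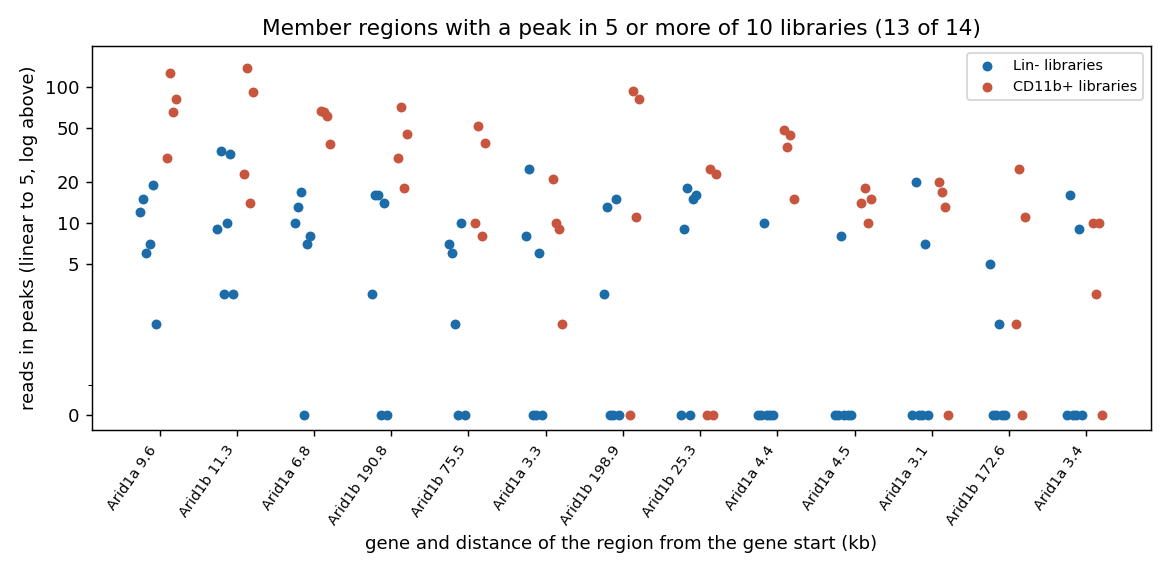
Reads in the peaks of 13 of the 14 regions found in at least 5 of 10 libraries, with 1 point per library (Lin- blue, CD11b+ red), on a vertical axis that is linear up to 5 reads and logarithmic above, and with regions named by gene and distance from the gene start in kb. At the GT repeat of Arid1a 9.6 kb from the gene start the Lin- libraries lie between 3 and 19 reads and the CD11b+ libraries between 30 and 126.

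Reads in GT regions were not computed for all genes. By another measure, the share of peaks with a GT 6-mer, CD11b+ libraries lay above Lin- libraries over all genes, while the member shares overlapped. A higher share in CD11b+ libraries was thus not particular to the members. Over all filtered peaks, 6.25% to 8.05% held a GT 6-mer in Lin- libraries and 20.3% to 31.3% in CD11b+ libraries, and over member peaks 17.1% to 33.3% and 29.4% to 55.2%. Within merged regions, 11.6% of 86 member regions in Lin- and 26.2% of 65 in CD11b+ cells held it, beside 8.09% and 24.01% of the regions of all genes. Long runs of at least 10 GT units occurred 65 times on the transcribed strand of the 10 genes, and 15 of them (23.1%) lay in a region. Runs of at least 10 CA units occurred 36 times, and 4 (11.1%) lay in a region. In Arid1b 6 of 21 GT runs and 1 of 16 CA runs carried a region, while none of the 3 GT runs of Smarca4 did. A match is a description of these letters, and how far reads can be placed uniquely in such repeats was not tested.

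The CA 6-mers ACACAC and CACACA were present in 10 of the 119 regions. The one found in the most libraries was the Arid1b intron at chr17:5019534-5019674, with 0, 9, 18, 0, 15 and 16 reads in Lin- and 0, 25, 0 and 23 in CD11b+ libraries. These values are after the smInput filter. The filter removed the Arid1b peak of Lin- library 1 that met the smInput peak in this region, so that 0 does not show an absent peak. The member peaks with a CA 6-mer made up 0%, 3.45% and 14.3% in the biological Lin- libraries and 2.94% and 8.16% in the biological CD11b+ libraries, a difference of 0.36 percentage points (exact permutation test, two-sided, p = 0.9, adjusted p = 0.9). Over all filtered peaks the share was 4.65% to 12.02% in Lin- and 8.90% to 23.7% in CD11b+ libraries. With the shorter motif CACA the difference was 10.3 points, from means of 18.4% and 8.04%. The difference for the 6-mers changed sign without Arid1a (-1.03 points) and over all 10 libraries (-1.83 points). Before the smInput filter it was 1.24 points, from means of 6.79% in Lin- and 5.55% in CD11b+ libraries. The 0% of Lin- library 1 also follows the removal of its Arid1b peak by that filter.

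Peaks near 3′ splice sites were found mostly in Lin- libraries. Of the 40 member regions within 300 nt of a 3′ splice site on its intron side, 37 had peaks only in Lin- libraries, 2 only in CD11b+ libraries and 1, on Smarcc2, in both. In short introns a region can be near both ends, and 12 of the 40, all 12 with peaks only in Lin- libraries, also lay within 300 nt of a 5′ splice site. The midpoints of the 40 lay at a median of 21 nt from the splice site, 37 of them within 60 nt, and C and T made up more than 50% of 33. Arid1a had 10 such regions, Smarcc2 8, Arid2 and Smarca4 6 each, Pbrm1 3, Arid1b, Smarca2 and Smarcd2 2 each and Smarcb1 1.

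**Figure D4:**
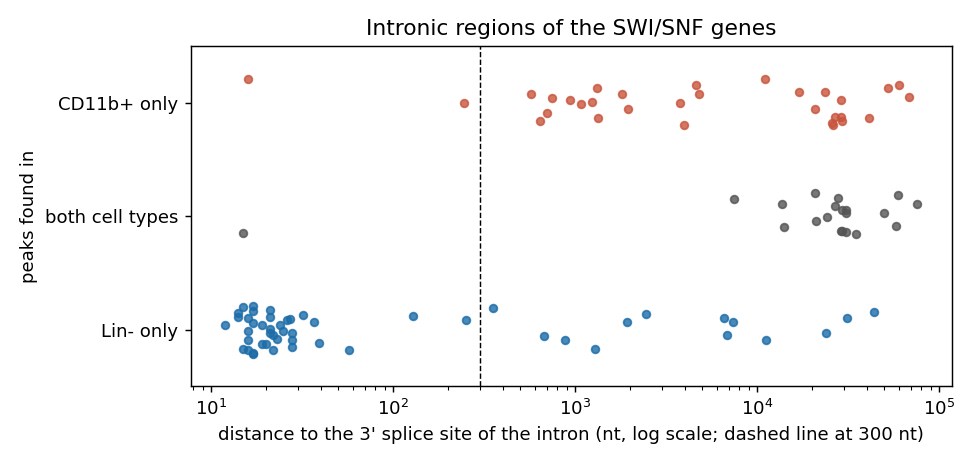
Distance of the midpoint of each intronic member region to the nearest annotated 3′ splice site of its intron (horizontal log axis, nt), with 1 point per region in 3 rows by the libraries with a peak (Lin- only, both cell types, CD11b+ only) and random vertical scatter within a row. Of the regions left of the dashed line at 300 nt, 37 are in the Lin- row, 1 in the middle row and 2 in the CD11b+ row.

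As a share of member peaks, those within 300 nt made up 59.5%, 13.8% and 54.3% in the biological Lin- libraries 1 to 3 and 68.8%, 14.3% and 42.9% in the technical ones, against 0%, 6.12%, 5.88% and 0% in CD11b+ libraries 1 to 4. Every Lin- library lay above every CD11b+ library, and Lin- libraries 2 and 5 were the lowest of their group. The means of the biological libraries were 42.5% ± 25.0 (SD, n = 3) and 3.06% ± 4.33 (SD, n = 2), a difference of 39.5 percentage points with p = 0.2 in the exact permutation test and an adjusted p of 0.9 over the 6 comparisons made. With 10 regroupings the design allows no p below 0.1, so no comparison between the cell types could pass 0.05. Over all 10 libraries, which counts technical replicates as samples, the difference was 39.2 points (exact permutation p = 0.00952, adjusted p = 0.0571). Without Lin- library 2 the difference between biological libraries was 53.8 points, and without Arid1a 40.4 points. Where any overlap with an exon counted as exonic it was 11.4 points, from means of 13.5% and 2.04%.

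**Figure D5:**
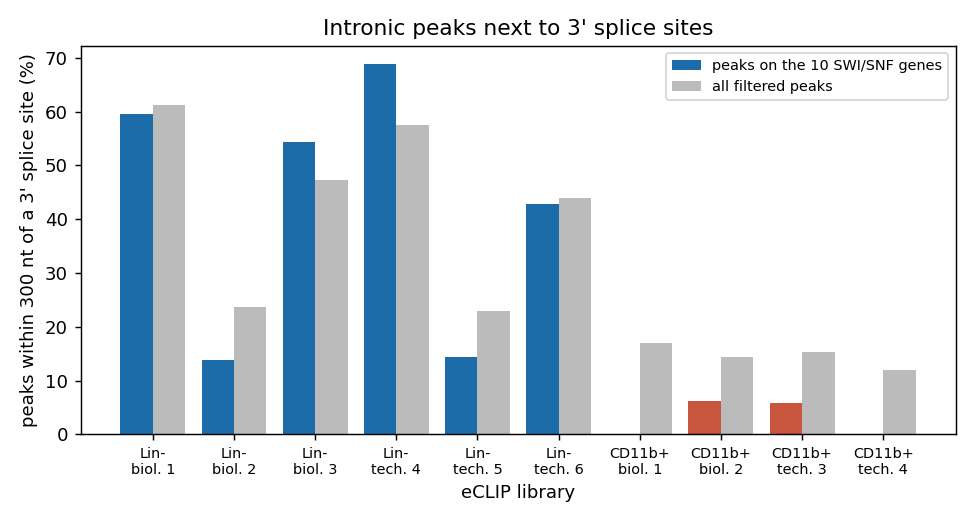
Percent of filtered peaks within 300 nt of a 3′ splice site on its intron side in each eCLIP library, for peaks on the 10 SWI/SNF genes (blue in Lin-, red in CD11b+ libraries) and for all filtered peaks of the library (grey), with no error bars since each bar is 1 library. Member shares were 13.8% to 68.8% in Lin- libraries and 0% to 6.12% in CD11b+ libraries.

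All filtered peaks moved the same way, with 23.0% to 61.2% within 300 nt in Lin- and 12.02% to 17.0% in CD11b+ libraries. In merged regions the members' share was 44.2% in Lin- cells, beside 45.1% for all genes, and 4.62% in CD11b+ cells, beside 16.2%. The latter rests on 3 of 65 regions.

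On Arid1a the regions near the gene start differed from those near its far end. Of the 19 regions in the first 5 kb, 13 had peaks in both cell types, 2 only in Lin- and 4 only in CD11b+ libraries, and none was near a 3′ splice site. Their median content of G and C was 83.0%, and 9 of them were in the coding sequence. The intronic region at chr4:133752364-133752451, 61 nt from the nearest 5′ splice site, had 48, 36, 44 and 15 reads in CD11b+ libraries 1 to 4 and, in Lin- libraries, 10 in library 3 only. Of the 12 regions beyond 50 kb, 10 had peaks only in Lin- libraries and 8 of these lay 14 to 39 nt from a 3′ splice site. The region at chr4:133686309-133686376 had 28, 9, 0, 19, 9 and 0 reads in Lin- libraries 1 to 6, and the one at chr4:133686543-133686649 had 20, 0, 13, 14, 7 and 0. Neither had a peak in any CD11b+ library.

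The share of member peaks in introns was 89.2%, 62.1% and 100% in the biological Lin- libraries and 73.5% and 81.6% in the biological CD11b+ libraries, so the groups overlapped (difference 6.17 points, exact permutation p = 0.8, adjusted p = 0.9). Peaks in coding exons made up 10.8%, 34.5% and 0% in Lin- and 20.6% and 16.3% in CD11b+ libraries, a difference of -3.36 points (exact permutation p = 0.8, adjusted p = 0.9). Of the 15 coding regions, 13 were on Arid1a. Without Arid1a the coding shares averaged 4.62% in Lin- and 1.92% in CD11b+ libraries, so the direction turned. It also turned when a peak touching an exon at any base was counted as exonic, with 51.7% of peaks in introns in Lin- and 74.5% in CD11b+ libraries (exact permutation p = 0.1, adjusted p = 0.2). Member peaks in 3′UTRs made up 0%, 3.45% and 0% in the biological Lin- and 5.88% and 2.04% in the biological CD11b+ libraries, a difference of -2.81 points (exact permutation p = 0.3, adjusted p = 0.9).

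Member peaks made up 0.503%, 0.289% and 0.403% of all filtered peaks in the biological Lin- libraries and 0.399% and 0.487% in the biological CD11b+ libraries. The groups overlapped, with a difference of -0.045 percentage points (exact permutation p = 0.8, adjusted p = 0.9), which became 0.0096 without Lin- library 2 and 0.018 without Arid1a.

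Other SWI/SNF genes and other remodelers carried peaks as well. Of 17 other subunit genes with a mean of at least 10, 15 had a peak in Lin- libraries and 7 a region in at least 2 biological libraries. The shares over all such genes were 39.8% and 14.9%. In CD11b+ libraries 6 of 16 (37.5%) had a peak, near the 37.1% of all genes, and 1, Actb, such a region, beside 11.6%. The subunit genes with the most regions were Actb, Bcl7a, Brd7, Brd9 and Bicral in Lin- cells, with 11 regions on Actb, 5 on Bcl7a and 4 on each of the others. In CD11b+ cells they were Actb with 11, Ss18 with 3 and Dpf2, Dpf3 and Bicral with 2 each. Dpf3 had a mean of 9.80 there and so is not among the 16. Actb, the cytoplasmic actin gene whose protein is also a BAF subunit, has near-identical copies in the genome, so the peaks assigned to it are uncertain.

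All 19 other remodelers found in both tables had a peak in Lin- and 18 in CD11b+ libraries, with 14 and 6 of them carrying a region in at least 2 biological libraries. Over all genes with a mean of at least 10 the shares were 39.8% and 37.1% with a peak. For such a region they were 14.9% and 11.6%. These remodeler genes are long, with a median of 99.0 kb. In Lin- cells Chd2, a CHD-family remodeler, had 15 regions, Baz1a 13 and Ep400 11. In CD11b+ cells Baz2b had 32, Chd7 17 and Baz1a 9. Baz2b, a 310.5 kb gene, equaled the 32 regions of Arid1a in CD11b+ cells and had 10 in Lin- cells.

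Over the 10 eCLIP libraries, the summed peaks on the members (37, 29, 35, 16, 21 and 14 in Lin- libraries 1 to 6 and 34, 49, 34 and 29 in CD11b+ libraries 1 to 4) were most alike in rank to those of Preb (Spearman's rho 0.98), Arpc1b (0.91) and Fxyd5 (0.86) among 496 other genes with a peak in every library. The median rho of these genes was 0.27. All points share the total yield of the library, technical replicates are among them, and the Preb counts ran only from 1 to 6.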

How the data were processed

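RNA-seq reads were mapped to mm10 by the authors (STAR 2.5.3a per the submitters' processing notes, which also list Bowtie2 and DESeq2). From the deposited table of each cell type only the mean normalized count, a signal pooled by the authors over both genotypes, was used. Its log2 fold changes, standard errors, statistics, p-values and eCLIP flags hold the authors' own comparisons and were not used. For eCLIP and smInput, reads were cleared of adapters, repeats and duplicates by the authors, who ran CLIPper on each library and deposited peaks with a p-value of at most 0.05, both before and after dropping those that overlap smInput peaks. Per the file headers, deduplication and calling settings differed between eCLIP and smInput.

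Peaks were assigned by the Ensembl ID in their name, located by midpoint on the GENCODE M21 basic annotation (GRCm38) and merged where they overlapped by at least 1 nt. Shares per library were compared over biological libraries, 3 against 2, by two-sided exact permutation of the absolute difference of means, with Benjamini-Hochberg adjustment over 6 comparisons. Functions were tested on simulated data (Python 3.11.15, pandas 2.3.3, NumPy 2.4.6, matplotlib 3.10.9, samtools 1.23.1).

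Named genes were all members, the 3 other subunits and 3 other remodelers with the most regions per cell type (ties included), and the 3 genes most alike in peaks per library. The members and lists were chosen with earlier results of these data known, and 2 alternatives were added after seeing the data. The total reads of the eCLIP libraries are not given in the sources used here. Some items that these rules include are not reported here.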

Additional observations from a re-analysis of the deposited data

Results flagged for a closer look

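In 5 of 29 sets of 4 to 6 libraries of one cell type, 1 library lay farther from the rest than Dixon's test allows at the 95% level, which by chance happens in about 1 set of 20. Lin- library 2 had 3.45% of member peaks in 3′UTRs, from a single Smarcc2 peak, while the other 5 Lin- libraries had 0%. CD11b+ library 1 had 3 peaks on Arid2 where the other CD11b+ libraries had 4 each. The technical Lin- library 4 had 1 peak on Smarcb1 and the other Lin- libraries had 0. Lin- library 1 had 3 peaks on Smarcd2, while the others had 0 to 1. CD11b+ library 2 had 2 peaks on Pbrm1 and the other CD11b+ libraries had 0. All 5 rest on 1 to 4 peaks. In 4 of the 5 the other libraries were tied, so that any single differing count is singled out and the rate of 1 in 20 does not apply.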

How the results depend on the processing

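Of the 6 comparisons, the share near 3′ splice sites and the share in 3′UTRs kept their direction under every alternative run, with differences of 11.4 to 58.3 and -4.73 to -0.89 percentage points, and no alternative passed an adjusted p of 0.05. The intron share turned to -22.9 and the coding share to 25.7 points when any overlap with an exon counted, which also gave the lowest splice value, 11.4. Without Arid1a the coding share turned to 2.69, the members' share of peaks to 0.018 and the CA share to -1.03 points. The CA share turned to -1.83 over all 10 libraries and was 10.3 with the motif CACA. Of the settings added after seeing the data, leaving out Lin- libraries 2 and 5 from all libraries turned it to -2.21, and leaving out Arid1a and Arid1b turned it to -11.3 and the members' share to 0.025. With the replicate block, which pairs the numbers 1 and 2, the intron, coding and CA differences turned to -1.95, 4.19 and -3.83 points and the splice difference was 33.6. These are the same values as without Lin- library 3, which the pairing leaves out, so they are not a separate result. The labels give these numbers no shared origin across cell types, and the pairing allows no p below 0.5. Leaving out 1 biological library gave -1.95 to 17.0 points for introns, -13.1 to 4.19 for coding exons, -0.097 to 0.0096 for the members' share, -3.83 to 3.31 for CA and 31.0 to 53.8 for splice sites. The causes were not tested.

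A peak value below 0.001 left 45 of 86 merged regions in Lin- and 40 of 65 in CD11b+ cells, as fewer peaks enter. Of the 19 Lin- regions in at least 2 biological libraries, leaving out 1 library gave 8 to 13, with 8 without library 1, 13 without library 2 and 12 without library 3, as fewer libraries can repeat a peak. Leaving out the smInput filter moved no count of merged regions past 1.5 times, nor did a larger overlap move the counts of regions in at least 2 biological libraries. Most member peaks held few reads, so an absent peak does not show an absent contact.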
